A study of Drosophila melanogaster with 2 samples.

Results

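Genes of the Drosophila X chromosome that were known only by a CG number, the serial number given by genome annotation to a predicted gene, were compared in dBigH1 ChIP and input DNA. The members were the genes on the X of the dm3 build that started before 21.8 Mb, were at least 500 bp wide and had a symbol made of CG and a number. They numbered 1140, among 2382 genes of the X and 15627 genes of the deposited table. The same kind of gene on the arms 2L, 3L and 3R, 4549 genes, served as background. dBigH1 ChIP was 1 library, made with an antibody against dBigH1 from embryos of the white-eyed laboratory stock w1118, collected 0 to 2 h after fertilization. Input was 1 library from embryos of the same stock and age, with no antibody. The labels name no other allele or treatment and do not give the sex of the embryos. With 1 library in each group no difference had a replicate check, so no p-value is given and intervals cover counting error or the spread of genes only.

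dBigH1 is the embryonic and germ line form of linker histone H1, the protein that binds DNA where it enters and leaves the nucleosome and helps to pack it. It is supplied by the mother and fills the nuclei of the early embryo, before most zygotic genes are transcribed, and somatic H1 takes its place later. Males carry fewer copies of the X than females, so a mixed collection of embryos holds less X DNA than autosomal DNA, and this applies to input and ChIP alike. Most genes with only a CG number lack a mutant or a studied function, and they serve here as markers of position along the X.

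Each value was a log2(RPKM + 1), where RPKM is the number of reads of a gene scaled to its width, introns included, and to the total reads of its library. The whole reads behind each value could be recovered. The members held 264775 ChIP and 200377 input reads, 5.09% and 5.42% of all reads in genes. The median member had 77 ChIP and 62 input reads, and 85 members had under 20 input reads. The log2 ratio of a gene is its ChIP value minus its input value on the deposited log2(RPKM + 1) scale.

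Both libraries were lower over the X genes than over the autosomal ones, and the ChIP was lower by more. Median ChIP level was 2.44 log2(RPKM + 1) over the X genes, with quartiles of 2.23 and 2.62, against 2.92 (2.75 and 3.08) over the autosomal CG genes. Median input level was 2.55 over the X genes, with quartiles of 2.38 and 2.71, against 2.92 (2.75 and 3.09). As plain RPKM, the X medians were 4.42 (ChIP) and 4.86 (input), while the autosomal medians were 6.57 and 6.55. The X level was therefore 0.673 times the autosomal level for the ChIP and 0.742 times for the input. In both libraries the upper quartile of the X genes lay below the lower quartile of the autosomal ones, while the outer parts of their ranges overlapped. The number of X copies in the embryos was not measured, and its part in these levels was not tested.

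**Figure D1:**
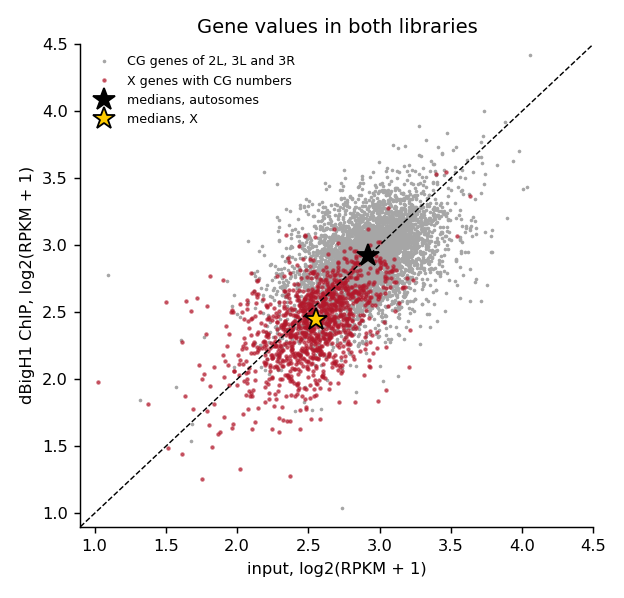
Each point is 1 gene with a CG number, with its input value on the x axis and its dBigH1 ChIP value on the y axis, both as log2(RPKM + 1), for the X (red) and for 2L, 3L and 3R (grey). Stars mark the medians: the autosomal star lies on the dashed line of equal values (2.92 in both libraries) and the X star lies below it (2.55 in the input, 2.44 in the ChIP).

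The median log2 ratio of the X genes was -0.12, with a 95% interval of the median over genes from -0.14 to -0.10. That of the autosomal CG genes was -0.0012 (-0.01 to 0.01), so the difference of the X from the autosomes was -0.118. It was -0.070 with 5 RPKM added in place of 1. A filter at the median input RPKM of all genes gave -0.20, and matching on input gave -0.32, but both sort genes by the denominator of the ratio. As input was lower over the X, the filter takes X genes whose input is high for the X. How much of the move came from this selection was not tested. Matching kept all 1140 members and set them beside autosomal genes of like input. In the lowest of 5 input classes, 840 members had a median of -0.07 and 910 autosomal genes one of 0.22. For these reasons neither value gives the size of the difference. Single X genes spread more than this difference, with quartiles of -0.30 and 0.04 and a central 90% from -0.59 to 0.33. Of the 1140 members, 783 (68.7%) were below the autosomal CG median, against 55.6% of all genes of the table and 50% of the autosomal CG genes. With all reads pooled, which gives long genes more weight and needs no added constant, the log2 ratio was -0.09 (-0.10 to -0.08) on the X and 0.04 (0.04 to 0.05) on the autosomes.

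Counted gene by gene, members with low dBigH1 ChIP over input outnumbered those with high. The exact 95% counting interval of 162 members (14.2%) lay below the autosomal CG median, against 12.2% of all genes and 8.55% of the autosomal CG genes. The interval of 28 members (2.46%) lay above it, against 7.89% of all genes and 9.85% of the autosomal CG genes. The share below was thus near that of all genes. Among genes with another or no symbol, 29.9% on the X and 15.5% on the 3 arms lay below it, and 3.33% and 9.97% above. Those genes had more reads, with median input reads of 105.5 on the X and 107 on the arms. X genes had fewer reads than autosomal ones (median input reads 62 against 76), which widens their intervals. A ratio of -1 or less on the log2(RPKM + 1) scale was reached by 4 members, or 0.351%, against 1.17% of all genes and 0.154% of the autosomal CG genes. With no RPKM added, where -1 is a 2-fold lower RPKM, 13 members reached it, and with 5 RPKM added 0 did. The shares of other genes with these additions are not given, so these counts describe the members only. A ratio of 1 or more was reached by 1 member, against 0.787% of all genes and 0.0659% of the autosomal CG genes. The table of all genes includes genes under 500 bp, which had few reads.

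Each autosomal arm gave nearly the same background. The median log2 ratio of CG genes was 0.01 on 2L, -0.0031 on 3L and -0.01 on 3R. The 1020 other X genes of the same width and span, which have names or no symbol, had a median of -0.15 (-0.16 to -0.14), and the 4174 other genes of the 3 arms had one of -0.04. The difference of the X was thus -0.118 among genes with CG numbers and -0.112 among the others. These values share both libraries, and the difference between them was not tested.

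In 1 Mb steps along the X, counted by the start of each gene, the low ratio was spread over most of the chromosome. There were 22 steps of 14 to 74 members, and the median of 19 of them was below the autosomal CG median. On 2L, 3L and 3R, 36 of 74 steps with at least 10 CG genes had such a median. The 95% interval of the step median lay below the autosomal CG median for 13 X steps and above it for 0. For the autosomal steps these counts were 8 and 7 of 74. X step medians ranged from -0.24 to 0.10 and autosomal ones from -0.15 to 0.31, so the ranges overlapped, and 7 X steps were lower than the lowest autosomal step.

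**Figure D2:**
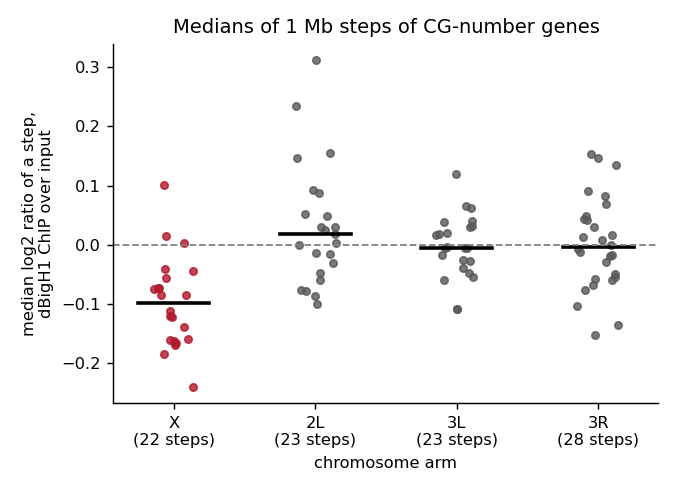
Each point is the median log2 ratio of dBigH1 ChIP over input among the CG-number genes of 1 Mb, by chromosome arm, and black bars are the medians of the steps. The X steps centre on -0.10 and range from -0.24 to 0.10, while the steps of 2L, 3L and 3R centre between -0.0049 and 0.02.

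The lowest step was that from 1 to 2 Mb, the second from the left end of the assembled X. Its 66 members had a median of -0.24 (-0.32 to -0.19), 57 of them were below the autosomal CG median, and by their intervals 14 were below and 0 above. Its median ChIP level was 2.30 and its median input level 2.56 log2(RPKM + 1). The lowest ChIP level of all 22 steps was found there, while its input level was within the range of the other steps (2.43 to 2.67). The step from 19 to 20 Mb followed with a median of -0.18 over 60 members (13 below by interval, 0 above), and the step from 11 to 12 Mb with -0.17 over 61 members (10 below, 1 above). Over all genes of the table, 55.6% were below the autosomal CG median and 12.2% were below it by interval. These 3 steps were ranked by their medians, from the same ratios, so their counts follow in part from the ranking. The members nearest these 3 medians were CG4045 (-0.24), CG12702 (-0.19) and CG11802 (-0.17), whose current symbol BORCS5 names a subunit of a complex that positions lysosomes. Each had 30 to 81 input reads, and none of the 3 counting intervals excluded the autosomal CG median.

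The highest steps were the last of the assembled X, at its centromere side, and an isolated one near its left end. The step from 21 to 22 Mb, which the start limit cuts at 21.8 Mb, had a median of 0.10 over 14 members, with a wide interval from -0.27 to 0.15. The step from 4 to 5 Mb had a median of 0.01 over 43 members (-0.14 to 0.14), and that from 20 to 21 Mb had 0.0032 over 45 members (-0.08 to 0.10). These steps too were ranked by the same ratios, and the interval of all 3 medians included the autosomal CG median. Nearest their medians were CG33713 (0.10), CG42594 (0.01) and CG15450 (0.0032). CG33713 is now anox, a gene of an acyl-CoA binding protein, and CG42594 is 64919 bp wide, with 2609 ChIP and 1836 input reads. The 59 members of the last 2 steps together had a median of 0.03 (-0.05 to 0.10), and the 1081 members before 20 Mb one of -0.13 (-0.15 to -0.11).

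Other X genes in the same steps did not always take the same values. In the 3 highest steps their medians were -0.21 (from 4 to 5 Mb, 33 genes), -0.14 (from 20 to 21 Mb, 43 genes) and -0.09 (from 21 Mb, 25 genes), all below the autosomal CG median. In the lowest step, from 1 to 2 Mb, 47 other genes had a median of -0.21. Across the 22 steps the medians of CG genes and of other genes had a Pearson r of 0.35 and a Spearman rho of 0.36, and across 74 autosomal steps these were 0.41 and 0.36. Points of a step share the libraries and, where genes overlap, the same reads. Of the 22 medians of other genes 21 were below the autosomal CG median, against 56 of 74 on the autosomes.

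**Figure D3:**
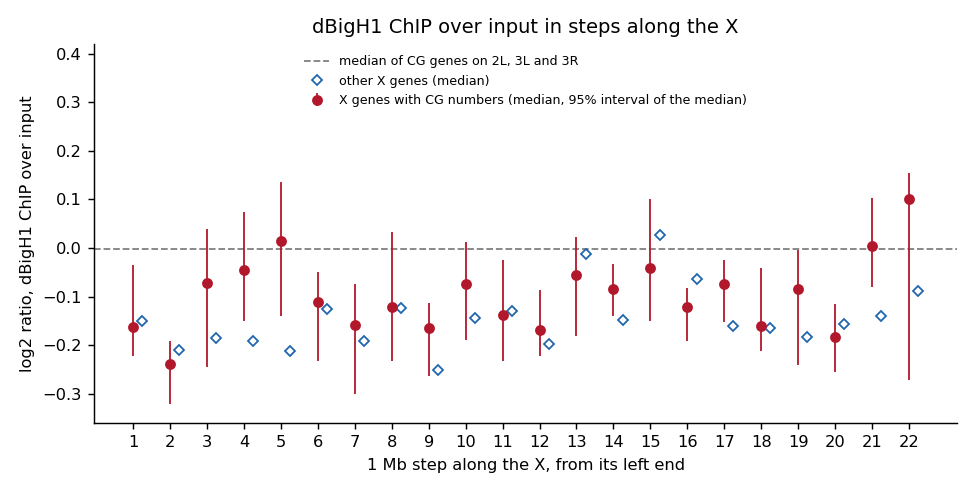
The median log2 ratio of dBigH1 ChIP over input is plotted against the 1 Mb step, numbered from the left end of the X, for genes with CG numbers (red, with the 95% interval of the median over genes) and for other X genes (blue diamonds). The dashed line is the median of CG genes on 2L, 3L and 3R. Of the 22 red points 19 lie below it, lowest in step 2 (-0.24) and highest in step 22 (0.10).

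Within a step, very long genes could carry a large part of the reads. From 4 to 5 Mb the median was 0.01 but the pooled reads gave -0.14, and CG32773, the widest member at 223590 bp, held 57.8% of the reads of that step. It had 10264 ChIP and 8198 input reads and a log2 ratio of -0.14 (-0.18 to -0.10), and without it the pooled ratio was -0.11. In the step at the left end the order was the other way, with a median of -0.16 and a pooled ratio of 0.02. CG32816 held 40.5% of its reads and had a log2 ratio of 0.06 (0.02 to 0.11), from 8773 ChIP and 5933 input reads, and without it the pooled ratio was -0.02. By pooled reads 20 of 22 X steps lay below the pooled autosomal value, 18 of them with their whole counting interval, against 45 and 23 of 74 autosomal steps.

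The members with the most reads gave the narrowest intervals and fell on both sides of the autosomal CG median. After CG32773 and CG32816 came CG1677, with 5994 ChIP and 4952 input reads, values of 2.69 and 2.87 log2(RPKM + 1) and a ratio of -0.18 (-0.23 to -0.14). The nearby CG9650, now Cph, which codes for a zinc finger protein of the nervous system, had 2.60 and 2.73, and a ratio of -0.13 (-0.18 to -0.07). CG42340 had 2.51 and 2.47, and its ratio of 0.04 (-0.01 to 0.10) could not be told from the autosomal CG median by its interval. All 5 overlap another gene of the table, whose reads cannot be separated from theirs.

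Wide genes had higher ratios than genes of middle width, on the X and on the autosomes. Over the 341 X members from 1000 to under 2000 bp the median was -0.19, against -0.03 over 1564 autosomal genes of that width. Over the 297 members from 2000 to under 4000 bp it was -0.14 (autosomes -0.03), over the 167 from 4000 to under 10000 bp -0.10 (0.01), and over the 121 of 10000 bp or more -0.03 (0.07). The 214 members under 1000 bp had a median of -0.06 (-0.13 to 0.03), against 0.03 over 908 autosomal genes. The X median was below the autosomal one in all 5 classes. For members of 10000 bp or more, 31 (25.6%) had an interval below the autosomal CG median and 11 (9.09%) above, while 10.1% and 36.7% of autosomal genes of that width did.

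**Figure D4:**
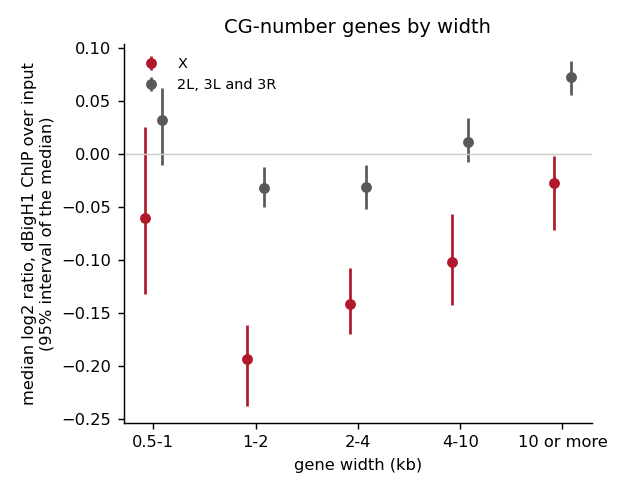
Median log2 ratios of dBigH1 ChIP over input are shown with the 95% interval of the median over genes for X (red) and autosomal (grey) CG-number genes, by gene width in kb. The X median is the lower one in all 5 width classes.

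At the low end of the members stood short genes with 12 to 40 ChIP reads. CG17982 was lowest, with log2(RPKM + 1) values of 1.84 (ChIP) and 2.99 (input), from 24 and 46 reads, and a log2 ratio of -1.15 (-1.72 to -0.56). It lies at chrX:8036583-8037638 on the minus strand. CG14795 (chrX:1406260-1406832) had 1.92 and 3.04, from 14 and 26 reads, and a ratio of -1.12 (-1.90 to -0.32). CG32590 (chrX:14732295-14733164) had 2.09 and 3.21, from 25 and 45 reads, and a ratio of -1.12 (-1.72 to -0.51). In these 3 genes the ChIP value was below the X median of 2.44 and the input value above the X median of 2.55.

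CG15766, now AgmNAT, which codes for an enzyme that acetylates agmatine, had 1.28 in the ChIP and 2.37 in the input, from 12 and 25 reads. Its ratio was -1.09 (-1.76 to -0.36), and its input, unlike that of the 3 lowest genes, was itself below the X median. CG2540 (-0.9996), CG13001 (-0.88), CG32713 (-0.88), CG15202 (-0.86), CG1789 (-0.85) and CG8142 (-0.84) completed the 10 lowest among members with at least 20 input reads. The 10 genes were 573 to 1777 bp wide and lay in 8 different steps, and 1 of them overlaps another gene of the table. All 10 intervals lay below the autosomal CG median, but the ranking used those same reads.

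At the high end, CG4661 had log2(RPKM + 1) values of 3.07 (ChIP) and 2.34 (input), from 133 and 52 reads, and a ratio of 0.73 (0.34 to 1.13). It lies at chrX:12749721-12751755 on the minus strand. CG32507 (chrX:20651177-20652247) had 2.79 and 2.10, from 56 and 22 reads, and a ratio of 0.70 (0.10 to 1.29). CG8958 (chrX:15977265-15979784) had 3.08 and 2.47, from 165 and 72 reads, and a ratio of 0.60 (0.26 to 0.95). The ChIP values of CG4661 and CG8958 were above the autosomal CG median of 2.92, and all 3 input values were below the X median of 2.55.

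CG8260 (0.59), CG12096 (0.59), CG32652 (0.56), CG2650 (0.55), CG10993 (0.54), CG6789 (0.53) and CG1537 (0.53) followed. CG2650 is now dyw (daywake), a gene named for an effect on daytime sleep, and CG6789 is Rpn13R, a relative of the gene of the proteasome subunit Rpn13. The interval of 6 of the 10 highest lay above the autosomal CG median, although the ranking used the same reads. Of the 10 highest 7 overlap another gene, against 1 of the 10 lowest and 448 (39.3%) of all members. The only member with a ratio of 1 or more, CG15249 (1.07, 0.32 to 1.78), had 38 ChIP and 10 input reads, too few input reads for this ranking. It lies in the longest run of consecutive members above the autosomal CG median, 10 genes from CG1468 to CG15252 (chrX:9772455-9874593). The longest run below it held 31 genes, from CG3918 to CG4593 (chrX:6418497-6909042), with ratios from -0.61 to -0.04 and 8 intervals below. Both runs were found by looking along the values.

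**Figure D5:**
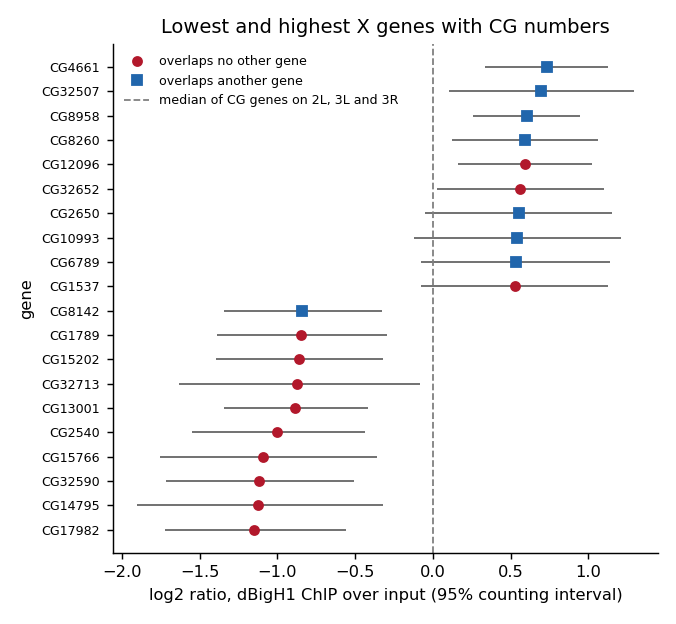
Log2 ratios of dBigH1 ChIP over input are shown with their exact 95% counting intervals for the 10 lowest and 10 highest X members with at least 20 input reads. Blue squares overlap another gene of the table (7 of the 10 highest and 1 of the 10 lowest) and red circles do not, and the dashed line is the median of CG genes on 2L, 3L and 3R.

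Members that overlap no other gene had a median log2 ratio of -0.14 (692 genes) and those that overlap one had -0.10 (448 genes). On the autosomes the order was the other way, with 0.02 (2653 genes) and -0.03 (1896 genes). The difference of the X was therefore -0.163 among genes without overlap, and smaller among those with overlap (-0.10 against -0.03). By strand, the medians were -0.14 for 547 members on the plus strand and -0.10 for 593 on the minus strand, and their intervals of the median (-0.17 to -0.11 and -0.14 to -0.08) overlapped. Neighbouring members without overlap and within 20 kb of each other, both with at least 20 input reads, had ratios with a Pearson r of 0.17 over 701 pairs, against 0.22 over 3127 autosomal pairs.

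Many members have since been named. Through their Entrez numbers 1120 of the 1140 matched a RefSeq table of Release 6, of which 1118 are protein coding, and 253 now have a symbol that is not a CG number. The median log2 ratio of the renamed members was -0.13 (-0.16 to -0.10), and the 867 that still go by a CG number had -0.12 (-0.15 to -0.09). On the autosomes 1155 renamed genes had -0.06 and 3337 with a CG number 0.02. Among genes still known by CG numbers the difference of the X was -0.139, and among renamed genes it was smaller (-0.13 against -0.06).

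The current names allowed a few groups of known function to be described, and these were put together by name after the data had been read. Their counts are to be read beside the renamed members, of which 190 of 253 (75.1%) were below the autosomal CG median, 46 (18.2%) by their intervals. The share below was 55.6% over all genes and 60.3% over renamed autosomal genes, and by interval 12.2% and 12.7%. The 14 genes of mitochondrial respiration had a median log2 ratio of -0.35, with 12 below the autosomal CG median. By interval 1 of the 14 was below, a share no higher than over all genes. Subunits of complex I, which passes electrons from NADH into the respiratory chain, made up 8 of these, and all 8 were below. ND-ASHI had values of 2.33 (ChIP) and 2.94 (input) from 66 and 78 reads and a ratio of -0.61 (-1.02 to -0.20). ND-B18 had 2.05 and 2.73 from 18 and 23 reads, and its ratio of -0.68 (-1.43 to 0.09) had an interval that included the autosomal CG median. At the other end lay UQCR-14, a subunit of complex III, at 0.06 (-0.67 to 0.79).

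The 5 nuclear pore genes had a median of -0.24 and all were below the autosomal CG median, 1 by its interval. Elys, whose product seeds pore assembly on chromatin, had 2.19 in the ChIP and 2.43 in the input, from 223 and 195 reads, and a ratio of -0.24 (-0.46 to -0.01). Nup35 had the lowest ratio of the 5, -0.59, from 26 and 32 reads, and Nup93-1 the highest, -0.14, from 122 and 98. Their order could not be resolved at this depth, since the intervals of both ends (-1.17 to 0.0028 and -0.46 to 0.18) overlapped.

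The 10 genes of chromatin and transcription regulators had a median of -0.23, with 7 below the autosomal CG median and 1 by its interval. That was Lint-1, whose product is a partner of the L(3)mbt repressor, with 2.44 and 2.87 from 123 and 125 reads and a ratio of -0.43 (-0.74 to -0.12). The zinc finger gene sov, needed for heterochromatin and transposon silencing in the ovary, had a ratio of -0.11 (-0.25 to 0.03) from 647 and 505 reads. NO66, a histone demethylase gene, was highest at 0.16 (-0.24 to 0.55), and Hinfp, a transcription factor gene, lay at 0.06. The 6 germ line genes had a median of -0.09 with 5 below and 0 by their intervals. They ranged from vilya (-0.59) to corolla (0.14), which act in meiotic recombination and in the synaptonemal complex, with moon, a gene of the piRNA pathway, at -0.05.

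The 10 genes of ubiquitin addition and removal had a median of -0.22, with 9 below the autosomal CG median and 3 by their intervals. These 3 were the deubiquitinase gene Usp16-45 (-0.51, -0.76 to -0.26, from 167 and 184 reads) and the ligase genes Ubr3 (-0.39, -0.51 to -0.26, from 724 and 709 reads) and HUWE1 (-0.35, -0.49 to -0.20, from 493 and 476 reads). Another ligase gene, Ubr1, had 579 and 423 reads and a ratio of -0.03 (-0.19 to 0.13). The intervals of Ubr3 and HUWE1 lay wholly below that of Ubr1. Highest of the 10 was Rpn13R at 0.53 (-0.08 to 1.14), from 47 and 21 reads. The 8 genes of translation and tRNA modification had a median of -0.28, with 7 below and 2 by their intervals, the tRNA dihydrouridine synthase gene Dus2 (-0.55, -0.97 to -0.13) and Tcs4 (-0.53, -0.98 to -0.08), which acts in tRNA threonylcarbamoylation. Pstk, a kinase gene of selenocysteine synthesis, was highest at 0.0039.

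Just inside the start limit lay CG10918 (0.28) and CG14476 (-0.15), now the glucosidase gene GCS2alpha, and just outside it CG14621 (0.12) and CG14615 (-0.33). Just inside the width limit were CG32667 at 502 bp (0.27) and CG34329 at 505 bp (-0.82), now Diedel3, and just outside it CG13365 at 494 bp (-0.76) and CG11752 at 496 bp (-0.74), now NdufV3. All of the latter 4 had under 20 input reads.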

How the data were processed

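Both libraries come from chromatin or DNA of 0 to 2 h embryos and were aligned to dm3, per the submitters' processing notes, which name CASAVA 1.9, Bowtie2, FastQC 0.10 and R 2.15 without roles. The sources used here do not say how reads were counted, with which annotation, or how duplicates were treated. Per the file headers, the authors deposited a log2 RPKM per gene and library and a MAnorm score per gene. The values were log2(RPKM + 1): undoing this gave whole reads for 100% of values in both libraries, within 1e-05 reads, and library totals of 8803832 (ChIP) and 6272887 (input). The deposited score had an SD of 1.00 over all genes and was used only as an alternative.

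The log2 ratio was the difference of the deposited log2 values. Gene intervals are exact Clopper-Pearson 95% intervals of the ChIP share of reads on the same scale, and intervals of medians are binomial, over ordered genes. They cover counting error or the spread of genes only, and PCR copies are not independent molecules. Named genes were the 10 lowest and 10 highest members with at least 20 input reads, the 5 with most reads, those nearest the medians of the 3 lowest and 3 highest steps, and those beside the limits of the selection. CG15249, the genes bounding runs and those in groups by current name were added after values were seen. The members and lists were chosen with earlier results of these data known. A planned search for motifs in promoters was not run, as no sequences were used here. RefSeq Release 6 gave names only, and coordinates are those of the deposited table. Statistics were computed with scipy 1.17.1 and statsmodels 0.14.6 on pandas 2.3.3 and numpy 2.4.6 (Python 3.11.15), and figures with matplotlib 3.10.9. Read recovery, the counting intervals and the difference of the X were tested on simulated reads with counting error only. The 1 Mb steps were not tested in this way. Alternatives were other pseudocounts, filters, widths, steps and backgrounds, a lowess (span 0.3), matching in 20 input bins and the deposited score.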

Additional observations from a re-analysis of the deposited data

How the results depend on the processing

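The X value lay below the autosomal one under all 40 alternatives run, which include means in place of medians and a comparison of genes with other symbols. The pseudocount settings keep the sign of each ratio, so they could hardly reverse this. Of the 40, 22 left out each 1 Mb step in turn, which removes few genes, and gave differences from -0.13 to -0.11. All 40 share the same libraries. The difference of -0.12 moved beyond its interval to -0.14 with no pseudocount, -0.070 with one of 5 RPKM, -0.20 where input RPKM reached the median over all genes (88 X members), -0.16 among genes that overlap no other, -0.084 after lowess and -0.32 within bins of input. The input filter and the input bins sort genes by the denominator of the ratio, so neither value gives the size of the difference. In units of the score that the authors deposited it was -0.26. The pooled difference of -0.13 became -0.18 at the input filter, -0.16 without overlapping genes and -0.14 among genes still named by CG numbers. The count of 19 of 22 steps below the autosomal CG median became 35 of 43 with steps of 0.5 Mb and 10 of 11 with steps of 2 Mb, and with the input filter no step held 10 members. Of the members, 4 had a ratio of -1 or less, against 13 with no pseudocount, 11 with one of 0.1 RPKM, 0 with one of 5 RPKM, 0 at widths of at least 2000 bp, 13 within bins of input and 121 on the deposited score. At the input filter 27 members had intervals below the autosomal CG median and 2 above, and the count above was also 7 without overlapping genes, 17 at widths of at least 2000 bp and 15 among genes still named by CG numbers. These counts too, and those at -1 or less under the alternatives, describe the members only, as the matching shares of other genes are not given. The 121 was counted in units of the deposited score and not of the log2 ratio, so it cannot be set beside the other counts. With no pseudocount, an alternative chosen after seeing the data, the counts of intervals below and above stayed at 162 and 28. This was nearly fixed in advance, as the autosomal CG median was -0.0012 and an added constant keeps the sign of a ratio. Members that start before 20 Mb, also chosen after seeing the data, gave a difference of -0.13. The causes of these moves were not tested, beyond the fewer genes that a filter leaves. No paired analysis was possible because each group had 1 library. Depth limited single genes: the median member had 77 ChIP and 62 input reads.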
